A study of Homo sapiens with 8 samples.

Results

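The liver X receptors (LXRs) and the genes that move sterols out of cells were followed in 2 multiple myeloma (MM) cell lines exposed to a statin. The set held 7 genes taken by their GENCODE symbols out of 58219 genes listed, by a rule that uses no measured value although earlier results of these data were known when it was written: the receptors NR1H2 and NR1H3, the transporters ABCA1 and ABCG1, and the LXR targets MYLIP, LPCAT3 and SMPDL3A. RNA-seq was performed on H929 and KMS11, established MM lines that both carry the t(4;14) translocation, grown in RPMI medium with serum. Each line received 2 µM fluvastatin, an inhibitor of HMG-CoA reductase and so of the mevalonate pathway, or ethanol as the solvent, for 24 h. The study describes 2 biological replicates of each line and treatment, which gave 8 libraries, and each line stands for itself alone, so differences between H929 and KMS11 rest on 1 line of each kind.

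LXRs are nuclear receptors that bind oxidized cholesterol derivatives and late cholesterol precursors. They sit on DNA as heterodimers with retinoid X receptors, typically at direct repeats of a 6-base half-site spaced by 4 bases, and with ligand they turn on genes that lower the sterol content of the cell. ABCA1 exports cholesterol and phospholipid to lipid-poor apolipoprotein A-I, and ABCG1 moves sterols towards high-density lipoprotein. MYLIP (also called IDOL) is a ubiquitin ligase that directs lipoprotein receptors to degradation, LPCAT3 places polyunsaturated fatty acids into membrane phospholipids, and SMPDL3A is a secreted phosphodiesterase of the acid sphingomyelinase family. The pathway is best known from macrophages and liver, the cell types that handle most sterol.

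ABCA1 (ENSG00000165029.15) lies on the minus strand of chromosome 9 of GRCh38, from 104781006 to 104928155. The 250 bases just upstream of its RefSeq start are shown because this was the only window among the members' with a close match to an LXR-type repeat, here 2 copies of AGGTCA in the same direction spaced by 4 bases, searched on both strands. RefSeq windows of 300 bases (GRCh38.p14, 250 before and 50 after a start) were at hand for 5 of the 7 genes, 8 windows in all, and ABCG1 and SMPDL3A had none. Capitals mark the half-sites of the match and a CACGTG E-box in the sequence, printed 5′ to 3′ on the gene's strand, chr9:104928156-104928405.
ABCA1 upstream: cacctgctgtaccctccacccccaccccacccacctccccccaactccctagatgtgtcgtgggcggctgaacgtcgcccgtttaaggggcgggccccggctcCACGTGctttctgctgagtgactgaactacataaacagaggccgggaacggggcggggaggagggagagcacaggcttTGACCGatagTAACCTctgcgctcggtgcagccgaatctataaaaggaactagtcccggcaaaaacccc

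The match runs from 69 to 54 bases upstream of the start, chr9:104928209-104928224, and has the letters of the repeat at 10 of 12 fixed positions on the opposite strand. In the other members the best match had 8 of 12 letters, or 7 in 1 of the NR1H3 windows. The sites are set side by side with the half-sites in capitals, ABCA1 and LPCAT3 read on the strand opposite to the gene and the other 2 on the gene's strand.
ABCA1 site: AGGTTActatCGGTCA
NR1H2 site: GGCTCAgagaAGCGCA
MYLIP site: CGGCCAgggaAACTCA
LPCAT3 site: AGGTAGgaagAGGGCG
Of all 35116 windows, 2.34% held the repeat with at most 2 mismatches, 7.26% held the E-box and 0.194% held both, while 72.5% held the repeat with at most 4 mismatches. A match to letters in a window is a description and no evidence that a receptor binds there.

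The libraries held 26702506 to 41910438 assigned fragments, and 13129 protein-coding genes passed the filter on low counts and were tested, all 7 members among them. Levels are given as CPM, counts relative to the library's total over the tested genes as adjusted by edgeR's TMM method. Where genes are compared with each other, levels are given as TPM, which is also divided by transcript length. A gene was called when edgeR's quasi-likelihood test gave a Benjamini-Hochberg adjusted p under 0.05 over all tested genes. Shares of all tested genes are at this adjusted threshold. No such share was computed for counts at an unadjusted p, so those counts do not set the named genes apart from other genes. All 7 plasma cell markers looked up, SDC1 among them, and the t(4;14) genes FGFR3 and NSD2 were present, except that CD38 reached at most 0.04 TPM in KMS11. Of the plasma cell markers, SDC1 (log2 -1.08), SLAMF7 (-0.98) and XBP1 (-0.34) fell and PRDM1 (0.32) rose with fluvastatin in H929, and XBP1 fell in KMS11 (-0.40) and across both lines (-0.37). The part of this in the members' changes was not tested. In bulk RNA, fewer expressing cells and less RNA per cell cannot be told apart.

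With fluvastatin, both sterol exporters and MYLIP fell in both lines, and the fall of the exporters was deeper in H929. ABCA1 fell by 2.46 on the log2 scale in H929 and by 1.04 in KMS11, ABCG1 by 2.31 and 0.64, and MYLIP by 0.60 and 0.96. The receptors themselves did not pass the test in either line. LPCAT3 fell and SMPDL3A rose in H929 alone by the test, and the difference between the lines passed the test for SMPDL3A but not for LPCAT3.

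Taking both lines together with the line as a term, 3 of the 7 members were lower and 0 were higher, where 3.93% of all tested genes were lower and 6.5% higher. At an unadjusted p under 0.05, 1 member was higher (NR1H2), and DESeq2 and limma also gave 3 lower and 0 higher. The log2 fold change was -1.74 for ABCA1 (SE 0.27, adjusted p = 0.010), -1.35 for ABCG1 (SE 0.31, adjusted p = 0.031) and -0.78 for MYLIP (SE 0.12, adjusted p = 0.010). ABCA1 had the 18th lowest log2 fold change of all tested genes. The median over the members was -0.22, beside 0.03 over all tested genes. These 3 calls were lost when same-numbered libraries of a line were taken as a block in place of the line term. The edgeR adjusted p was then 0.068 for ABCA1, 0.10 for ABCG1 and 0.057 for MYLIP. The ABCG1 call was also lost without any 1 of the 4 H929 libraries. Its value was -1.635 to -1.088 with 1 library of either line left out.

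**Figure D1:**
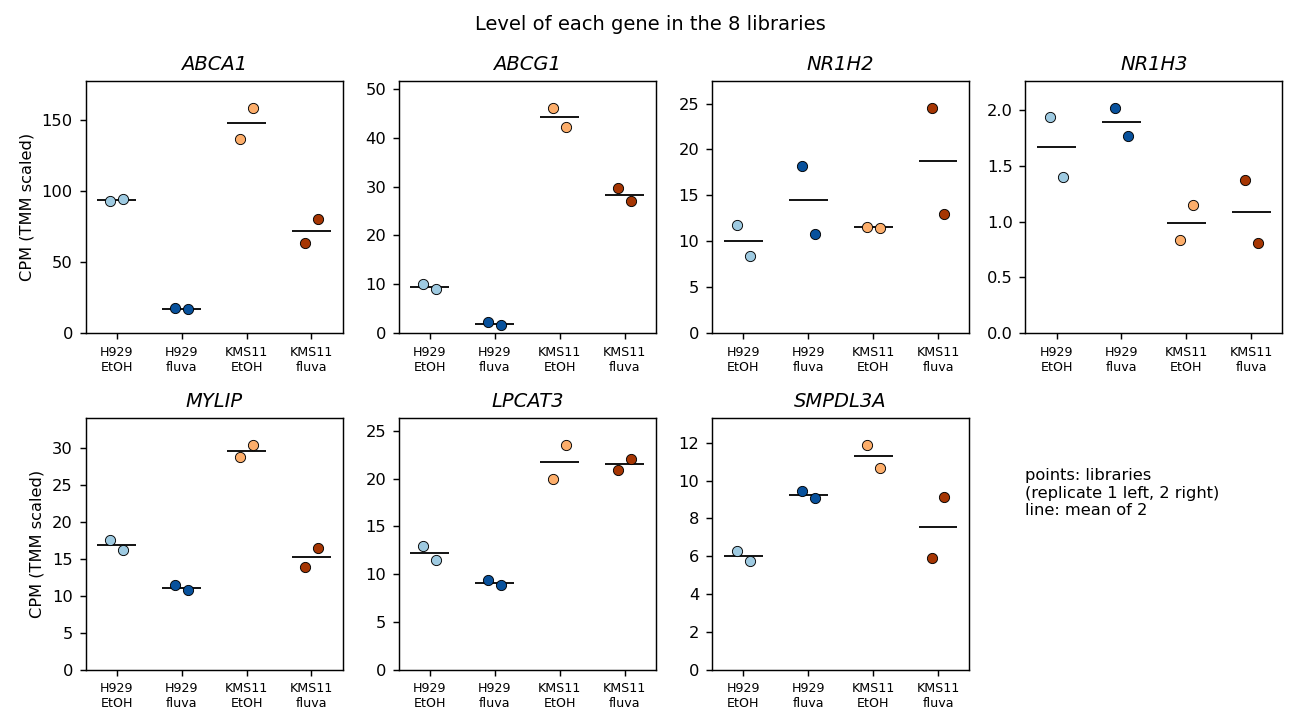
Level of each of the 7 genes in the 8 libraries, in TMM-scaled CPM on axes that start at 0, with EtOH for ethanol and fluva for fluvastatin. Points are libraries and lines are means of 2; ABCA1, ABCG1 and MYLIP are lower with fluvastatin in both lines without overlap, while the NR1H2 and NR1H3 points overlap or spread widely.

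Within H929, 4 of the 7 genes were lower and 1 was higher, against 19.3% lower and 22.7% higher of all tested genes. The median log2 fold change of the members was -0.43, beside 0.02 over all tested genes. In H929 DESeq2 gave 3 lower and 1 higher, without LPCAT3. Limma on log2(TPM + 1) gave 3 lower and 0 higher, without LPCAT3 and SMPDL3A. Within KMS11, 3 of the 7 were lower and 0 higher, where 0.533% of tested genes were lower and 2.58% higher. In KMS11 the members' median was -0.58, beside 0.0044 over all tested genes. At an unadjusted p under 0.05 in KMS11, 4 members were lower and 0 higher, and the share of all tested genes at that threshold was not computed. DESeq2 and limma gave the same 3 lower and 0 higher as edgeR.

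ABCA1, the main exporter of cholesterol to apolipoprotein A-I, stood at 93.4 and 94.2 CPM in the H929 ethanol libraries and at 17.3 and 16.7 CPM in the fluvastatin libraries. In KMS11 it stood at 137 and 159 CPM in ethanol and at 63.3 and 80.1 CPM in fluvastatin. The treated libraries lay below the controls in both lines, and the replicates were close together in H929. The fold was 5.51-fold lower in H929 (log2 -2.46, SE 0.13, adjusted p = 2.4e-06) and 2.06-fold lower in KMS11 (log2 -1.04, SE 0.12, adjusted p = 0.0019). Both calls held without any 1 library and under every other setting tried. The counts behind them were 394 to 5803 fragments per library.

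ABCG1 (ENSG00000160179.18, chromosome 21, plus strand, 42199689 to 42297244), which hands sterols to lipoprotein particles, read 10.0 and 8.96 CPM in H929 ethanol and 2.20 and 1.65 CPM in H929 fluvastatin. The 2 treated libraries held 50 and 41 fragments. In KMS11 it read 46.1 and 42.3 CPM in ethanol and 29.8 and 27.0 CPM in fluvastatin. The groups did not overlap within either line, and every KMS11 library, treated or not, lay above every H929 library. ABCG1 was 4.95-fold lower in H929 (log2 -2.31, SE 0.18, adjusted p = 1.4e-05) and 1.56-fold lower in KMS11 (log2 -0.64, SE 0.14, adjusted p = 0.037). The KMS11 call was lost without either ethanol library (adjusted p 0.28 without replicate 1 and 0.17 without replicate 2) and with scaling by library size (adjusted p = 0.051).

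MYLIP (ENSG00000007944.14, chromosome 6, plus strand, 16129086 to 16148248), the ligase acting on lipoprotein receptors, measured 17.5 and 16.2 CPM in H929 ethanol against 11.5 and 10.7 CPM in fluvastatin. In KMS11 it measured 28.7 and 30.4 CPM in ethanol against 13.9 and 16.5 CPM in fluvastatin. The groups were apart in both lines. The change was -0.60 in H929 (SE 0.14, adjusted p = 0.0062) and -0.96 in KMS11 (SE 0.13, adjusted p = 0.0048), both on the log2 scale. The value was larger in size in KMS11, unlike those of ABCA1 and ABCG1, but the difference of its responses did not pass the test (-0.35 log2 units, 95% interval -0.78 to 0.08, adjusted p = 0.21). Without KMS11 ethanol replicate 1 or 2 the KMS11 adjusted p was 0.055 and 0.067.

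LPCAT3 (ENSG00000111684.10, chromosome 12, minus strand, 6976185 to 7018477), the phospholipid remodelling enzyme, gave 13.0 and 11.5 CPM in H929 ethanol and 9.40 and 8.82 CPM in H929 fluvastatin. The H929 groups did not overlap. The change was -0.43 on the log2 scale (SE 0.15, adjusted p = 0.040), a call lost with limma on log2(TPM + 1). In KMS11 it gave 20.0 and 23.5 CPM in ethanol and 20.9 and 22.1 CPM in fluvastatin, where the treated pair lay inside the range of the controls (log2 -0.02, 95% interval -0.32 to 0.29, adjusted p = 0.96). The H929 call was lost without any 1 of the 4 H929 libraries (adjusted p 0.061 to 0.21) and with DESeq2 (adjusted p = 0.070).

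SMPDL3A (ENSG00000172594.12, chromosome 6, plus strand, 122789049 to 122809720), the phosphodiesterase, moved the other way in H929. It read 6.26 and 5.76 CPM in H929 ethanol and 9.44 and 9.06 CPM in fluvastatin, a rise of 0.62 on the log2 scale (SE 0.21, adjusted p = 0.041). In KMS11 it read 11.9 and 10.7 CPM in ethanol and 5.89 and 9.16 CPM in fluvastatin, with a log2 fold change of -0.58 (SE 0.21, adjusted p = 0.15). The groups did not overlap in either line, but the 2 treated KMS11 libraries were far apart. Over all annotated genes and with limma on log2(TPM + 1), the H929 call was lost. Without KMS11 fluvastatin replicate 2 the KMS11 value was -0.99 (adjusted p = 0.0073), and the H929 call was lost without any 1 H929 library (adjusted p 0.098 to 0.16) or either KMS11 ethanol library (0.079 each).

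**Figure D2:**
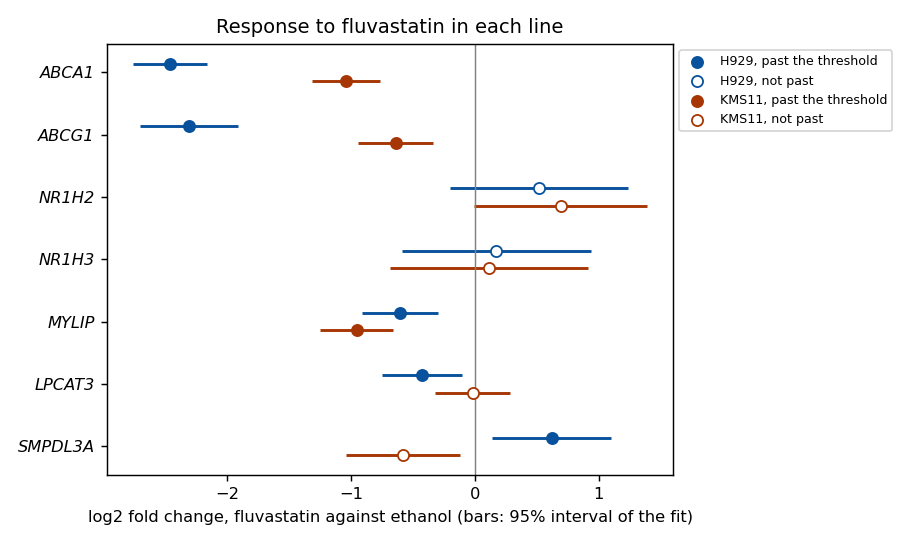
Log2 fold change of each gene with fluvastatin against ethanol in H929 (blue) and KMS11 (brown), with the 95% interval of the edgeR fit, filled where the adjusted p was under 0.05. ABCA1 sits at -2.46 and -1.04 and ABCG1 at -2.31 and -0.64, while SMPDL3A lies on opposite sides of 0.

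NR1H2 (ENSG00000131408.13, chromosome 19, plus strand, 50329653 to 50383388) encodes LXRβ, the form found in most tissues. It read 11.7 and 8.36 CPM in H929 ethanol and 18.2 and 10.8 CPM in fluvastatin, and 11.6 and 11.5 CPM in KMS11 ethanol and 24.5 and 12.9 CPM in fluvastatin. In each line replicate 1 with fluvastatin was the highest library, the H929 groups overlapped, and the KMS11 groups did not. The log2 fold change was 0.52 in H929 (SE 0.32, adjusted p = 0.23) and 0.69 in KMS11 (SE 0.31, adjusted p = 0.23), with 95% intervals of -0.20 to 1.24 and -0.01 to 1.39. In KMS11 the value was 0.16 without fluvastatin replicate 1 and 1.04 without fluvastatin replicate 2 (adjusted p = 0.016), and in H929 removing trends with GC content and length gave 0.67 (adjusted p = 0.012).

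NR1H3 (ENSG00000025434.18, chromosome 11, plus strand, 47248300 to 47269033) encodes LXRα, which is prominent in liver and macrophages. Its counts were low, with 31 to 57 fragments per library. It read 1.94 and 1.40 CPM in H929 ethanol, 2.02 and 1.77 in H929 fluvastatin, 0.835 and 1.15 in KMS11 ethanol, and 1.37 and 0.809 in KMS11 fluvastatin. The treated and control libraries overlapped in both lines, and the log2 fold changes were 0.17 in H929 (95% interval -0.59 to 0.94) and 0.11 in KMS11 (-0.68 to 0.91), intervals that reach well to both sides of 0. Both receptor genes overlap an antisense gene, NAPSA for NR1H2 and ACP2 for NR1H3, and LPCAT3 overlaps EMG1. The library kit keeps strand, and no same-strand exon overlap was found for any member. Whether the counting used strand was not checked, and a part of the antisense genes in these counts was not tested.

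The question of whether the lines responded alike was tested directly as the KMS11 minus H929 difference of the responses. ABCA1 differed by 1.42 log2 units (SE 0.18, adjusted p = 0.00086) and ABCG1 by 1.67 (SE 0.23, adjusted p = 0.0012), both with the smaller fall in KMS11. SMPDL3A differed by -1.20 (SE 0.30, adjusted p = 0.018). Thus 2 members were higher and 1 lower, where 11.7% and 11.5% of all tested genes were higher and lower in this comparison, and the members' median of 0.17 stood beside 0.0017 over all tested genes. For LPCAT3 the difference was 0.41 (95% interval -0.04 to 0.85, adjusted p = 0.17), for NR1H2 0.17 (-0.83 to 1.18) and for NR1H3 -0.06 (-1.17 to 1.05). With limma on log2(TPM + 1), a scale that understates changes of low genes, the ABCA1 and ABCG1 differences were 0.52 (adjusted p = 0.12) and 0.32 (adjusted p = 0.26), and the SMPDL3A call was lost without KMS11 ethanol replicate 1 (adjusted p = 0.082) or H929 ethanol replicate 2 (0.052).

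In ethanol, 5 of the 7 genes were higher in KMS11 than in H929 and 0 were lower, where 35.6% of all tested genes were higher and 36.4% lower. At an unadjusted p under 0.05 the counts were the same, and DESeq2 gave 5 higher and 0 lower. With limma on log2(TPM + 1) 6 were higher, adding NR1H2, and 0 lower, but the median of all tested genes was itself 0.315 on that scale. ABCG1 differed the most, by 2.21 on the log2 scale (4.64-fold, SE 0.15, adjusted p = 6.1e-07). SMPDL3A was higher by 0.91, LPCAT3 by 0.83, MYLIP by 0.81 and ABCA1 by 0.66, and the members' median was 0.81 beside -0.02 over all tested genes. NR1H2 (0.19, adjusted p = 0.60) and NR1H3 (-0.76, adjusted p = 0.073) did not pass. With trends in GC content and length removed the ABCA1 value was 0.24 (adjusted p = 0.053) and the NR1H2 value 1.05 (adjusted p = 0.00032), with the median of all genes at -0.10.

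Per transcript length, the order of the members changed with treatment in both lines. In H929 ethanol ABCA1 led at 4.54 ± 0.05 TPM (SD, n = 2), followed by MYLIP at 3.51 ± 0.29, LPCAT3 at 2.90 ± 0.28 and NR1H2 at 2.79 ± 0.51, with ABCG1 at 1.73 ± 0.05, SMPDL3A at 1.72 ± 0.08 and NR1H3 at 0.98 in both libraries. LPCAT3 overlapped NR1H2, and ABCG1 overlapped SMPDL3A. In H929 fluvastatin NR1H2 led at 3.94 ± 1.34 TPM, and ABCA1 at 0.85 in both libraries and ABCG1 at 0.33 ± 0.05 took the last 2 places, below NR1H3 at 1.22 ± 0.31.

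In KMS11 ethanol ABCG1 at 10.8 ± 1.26 TPM and ABCA1 at 10.2 ± 0.71 overlapped at the top, above MYLIP at 8.65 ± 0.01, LPCAT3 at 7.63 ± 0.93, NR1H2 at 6.20 ± 0.80 and SMPDL3A at 4.63 ± 0.62. NR1H3 was last at 0.88 ± 0.30. In KMS11 fluvastatin NR1H2 (7.21 ± 2.12 TPM), LPCAT3 (6.75 ± 0.96) and ABCG1 (6.16 ± 0.01) overlapped, and ABCA1 (4.38 ± 0.88) overlapped MYLIP (4.18 ± 0.84), which overlapped SMPDL3A (2.87 ± 1.05). The ratio of ABCA1 to ABCG1 in TPM was 2.36 to 2.93 in the 4 H929 libraries and 0.609 to 1.07 in the 4 KMS11 libraries, without overlap. NR1H2 exceeded NR1H3 in TPM in all 8 libraries, by 2.08 to 4.89 times in H929 and 6.20 to 8.40 times in KMS11. TPM set KMS11 higher against H929 for the median gene by 0.32 in log2(TPM + 1), so the TPM levels of the lines are compared only in order and ratio.

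**Figure D3:**
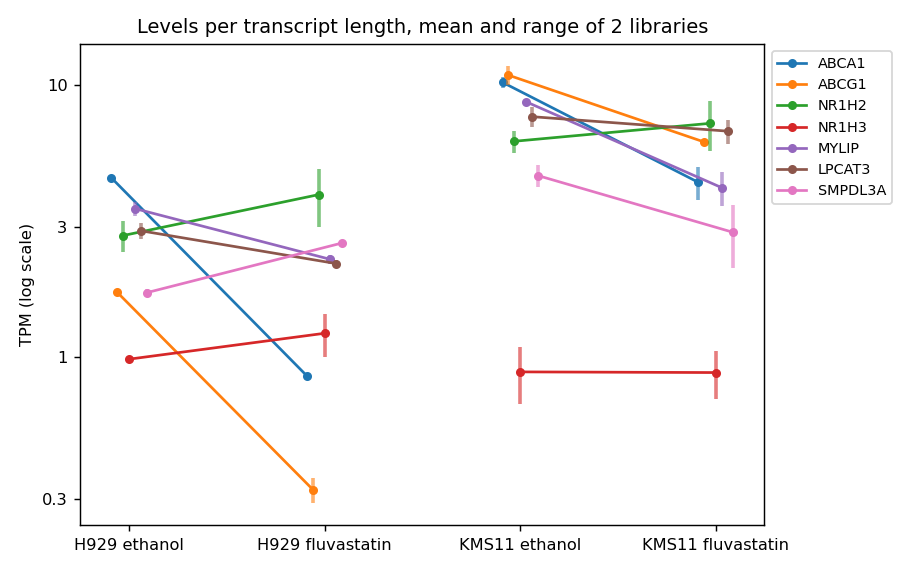
TPM of each gene in the 4 groups on a log axis, with points at the mean of 2 libraries and vertical bars from the lower to the higher library. In H929 the ABCA1 and ABCG1 lines drop from 4.54 and 1.73 to 0.85 and 0.33 and the ABCA1 line crosses those of both receptors.

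The genes most like each member across the 8 libraries were taken by Pearson's r of log2 CPM among genes whose log2 CPM averaged 1 or more, as a description in which the points share the difference between the lines. For ABCA1 they were SLC16A10, ADGRA3 and EBNA1BP2 (r = 0.99 each), and for ABCG1 they were COA1, ENTPD7 and GLA (lowest r 0.99). MYLIP was most like BTF3, AATF and CYB5R1 (0.97 each), LPCAT3 like CYREN, MACROH2A1 and GLYR1 (0.99 each), and SMPDL3A like RGPD1, MBTD1 and AUH (0.95 to 0.97). NR1H2 was most like PORCN (0.99), TNIP1 and DCTN1 (0.96 each), and NR1H3 like FBXO46, VPS33B and TRIM62 (0.98 each). Among the members, ABCA1 followed ABCG1 (r = 0.89) and MYLIP (0.88), ABCG1 followed LPCAT3 (0.96), and ABCA1 and SMPDL3A had r = -0.0012. NR1H3 ran against LPCAT3 (r = -0.80), ABCG1 (-0.79), MYLIP (-0.64) and ABCA1 (-0.64).

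Of 57 other genes of the pathway in 6 lists, 38 were tested. Across both lines 1 was higher, VLDLR (log2 0.76), and 0 were lower, beside 6.5% and 3.93% of all tested genes. In H929 11 of the 38 were higher and 4 lower, beside 22.7% and 19.3% of all tested genes. In KMS11 4 were higher and 0 lower, beside 2.58% and 0.533%. At an unadjusted p under 0.05, 13 were higher and 0 lower across both lines, 12 and 5 in H929, and 11 and 0 in KMS11. The share of all tested genes at that threshold was not computed. Among receptor partners and cofactors, 7 of 8 were tested, and in H929 4 rose and 0 fell (also 4 and 0 at an unadjusted p under 0.05), the coactivators NCOA2 (log2 1.0), NCOA3 (log2 1.0) and NCOA1 (log2 0.47) and the corepressor NCOR1 (log2 0.35). NCOA2 went from 140 ± 2.28 to 279 ± 8.13 CPM and NCOA3 from 279 ± 12.9 to 557 ± 8.23 (SD, n = 2). In KMS11 0 of these 7 passed (1 higher and 0 lower at an unadjusted p under 0.05), and the responses of NCOA2 and NCOA3 differed between the lines by -0.93 and -1.04. The list's median was 0.35 in H929 and 0.11 in KMS11.

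Makers and removers of sterol ligands were mostly too low to test, and 2 of 7 were tested. LIPA, the lysosomal acid lipase, rose by 0.35 in H929 (adjusted p = 0.024), and neither gene passed in KMS11.

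Among other LXR target genes, 6 of 15 were tested, and APOE, LPL and CETP were among those below the filter. In H929 the lipogenic enzymes SCD and FASN fell by 1.18 and 1.08, so that 2 were lower and 0 higher (also 2 and 0 at an unadjusted p under 0.05). In KMS11 FASN rose by 1.74 (adjusted p = 0.047), 1 higher and 0 lower (2 and 0 at an unadjusted p under 0.05), with 330 and 137 CPM in the treated libraries against 71.3 and 68.2 CPM. Of all tested genes 22.7% were higher and 19.3% lower in H929, and 2.58% and 0.533% in KMS11. SREBF1, which encodes the lipogenic regulator SREBP1, was -0.21 in H929 and 0.15 in KMS11 and did not pass. The list's median was -0.41 in H929 and 0.45 in KMS11, and the difference of the responses passed for SCD (1.68) and FASN (2.82). These medians include APOC1, which had at most 1 fragment in each H929 library.

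Of the receptor substrates of MYLIP, VLDLR and LRP8 were followed, and both were tested. LRP8 fell by 1.32 in H929 (adjusted p = 2.9e-05), from 76.2 ± 3.76 to 30.5 ± 2.22 CPM (SD, n = 2), read 0.17 in KMS11, and its responses differed by 1.5 (adjusted p = 0.00041). VLDLR rose by 0.85 in H929 (adjusted p = 0.026) on 36 to 61 fragments per H929 library, and in KMS11 its value was 0.66 (adjusted p = 0.19).

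In sterol transport and storage all 13 genes were tested. In H929 the cholesterol esterifying enzyme SOAT2 (1.13) and the lysosomal cholesterol carrier NPC2 (0.42) rose, and the HDL receptor SCARB1 fell by 1.35 (adjusted p = 6.6e-05). SOAT2 rested on 46 to 95 fragments per H929 library. In KMS11 the carrier STARD4 (0.67) and the lysosomal exporter NPC1 (0.50) rose and 0 fell (5 higher and 0 lower at an unadjusted p under 0.05). Of the other ABCA and ABCG transporters 8 of 12 were tested, with ABCA9 (1.29), ABCA7 (1.09) and ABCA5 (0.46) higher in H929 and ABCA3 (1.10) higher in KMS11. ABCA9 was low, with 13 to 19 fragments per library in H929 ethanol and 27 to 42 in H929 fluvastatin. Of these 8, 3 were higher and 0 lower in H929 and 1 higher and 0 lower in KMS11, beside the shares of all tested genes given above. At an unadjusted p under 0.05 the counts were 4 and 0, and 2 and 0, without such a share. The medians of the 8 were 0.46 and 0.60.

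**Figure D4:**
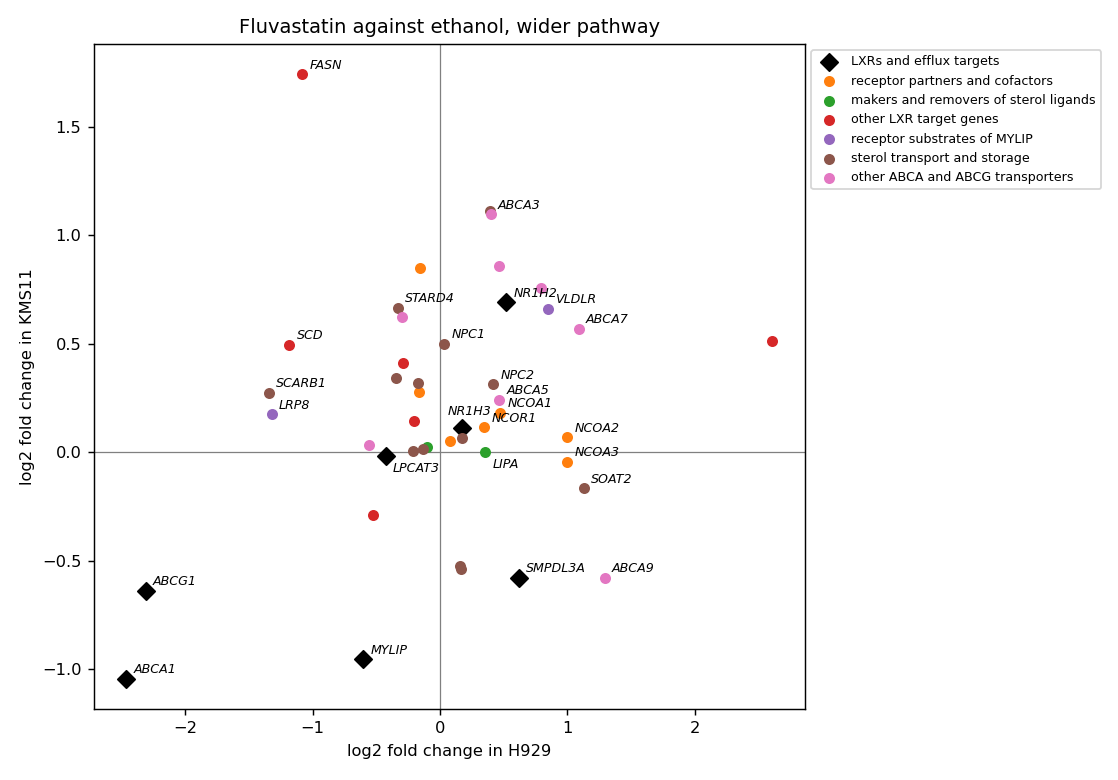
Log2 fold change with fluvastatin in H929 (horizontal) against KMS11 (vertical) for 45 tested genes, with the 7 members as black diamonds and the 6 wider lists as coloured circles; members and genes past the threshold in either line are named. ABCA1, ABCG1 and MYLIP lie at the lower left, and FASN at the upper left. The point farthest to the right is APOC1, with at most 1 fragment in each H929 library.

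Markers of other cell types were low but moved in H929. The 6 macrophage and monocyte markers summed to 2.03 to 2.47 TPM in H929 ethanol and 9.45 to 9.63 TPM in H929 fluvastatin, and to at most 0.17 TPM in KMS11. CD68 and MARCO, the 2 of the 6 that were tested, rose in H929, while CD14 and CSF1R were at 0 in all 8 libraries. The 3 T cell markers summed to 1.51 to 1.6 TPM in H929 ethanol and 3.07 to 3.54 TPM in H929 fluvastatin, with CD3E at 2.92 to 3.54 TPM in the latter. Mature B cell and fibroblast markers summed to at most 0.09 TPM in any library, with COL1A2 and DCN at 0. The part of these genes in the members' changes was not tested.

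**Figure D5:**
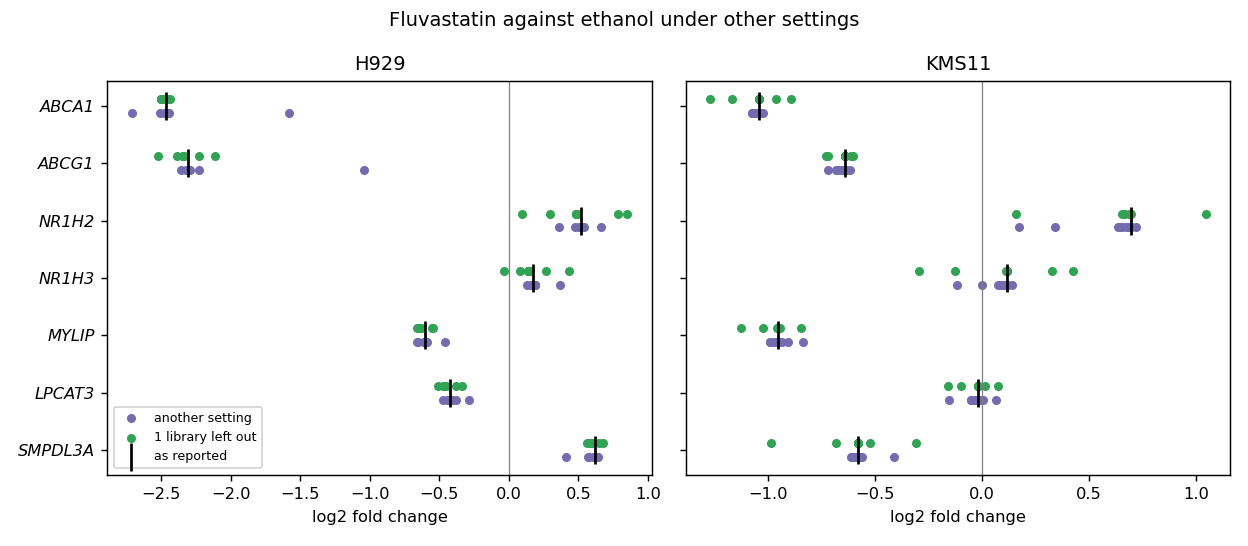
Log2 fold change of each gene in H929 (left) and KMS11 (right) as reported (black tick), with 1 library left out (green) and under other settings (purple). ABCA1 ranges from -2.71 to -1.58 on the left and -1.27 to -0.89 on the right, whereas NR1H3 crosses 0 in both lines.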

How the data were processed

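RNA-seq covered 8 libraries of H929 and KMS11 cells, grouped by the sample labels. The authors made stranded total RNA libraries after ribosomal RNA depletion and, per the submitters' processing notes, used STAR 2.5.2b on hg38 and RSEM 1.3.0. The deposited files hold expected counts without normalization, TPM, which divides by effective length, and FPKM, which was not used. Of the 58219 identifiers, 57392 were found in GENCODE release 44, the source of symbols and positions. The study calls the replicates biological, and whether equal numbers mark a shared culture or day is not given in the sources used here.

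Expected counts were rounded and fitted in R 4.3.3 with edgeR 4.0.16 (filterByExpr, minimum count 10, minimum total 15, TMM, quasi-likelihood F test). P-values were adjusted by Benjamini-Hochberg over 13129 protein-coding genes, with a threshold of 0.05. The response across both lines had terms for line and treatment, and the other comparisons are contrasts in 1 fit of the 4 groups. The standard error is the log2 fold change divided by the square root of F. Libraries held 26702506 to 41910438 fragments, with 2 replicates per group, and NR1H3 and, in treated H929, ABCG1 had at most 57 fragments per library. The scripts were tested on simulated data.

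The rule for the members uses no measured value, but members and lists were chosen with earlier results of these data known. Named genes were the 7 members, up to 3 genes per wider list and line with the largest change past the threshold, and the 3 genes most like each member. Other genes named were chosen after their values were seen. Results that concern withheld items are not reported here, and the wider lists are counted without them. Alternatives were DESeq2 1.42.0, its size factors, library size scaling, no filter and a minimum count of 50, all annotated genes, limma 3.58.1 on log2(TPM + 1), GC and length trends removed, a replicate block, no line term, an adjusted p under 0.01, each library left out and, chosen after seeing the data, each line fitted alone.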

Additional observations from a re-analysis of the deposited data

Results flagged for a closer look

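The responses of 3 genes to fluvastatin differed between H929 and KMS11 by the test of the difference itself in edgeR, and each is listed for that reason. For ABCA1 the KMS11 minus H929 difference was 1.42 log2 units, with a fall in 2 of 2 lines that was smaller in KMS11. For ABCG1 it was 1.67 log2 units, again with the smaller fall in KMS11. For SMPDL3A it was -1.20 log2 units, a rise in H929 against a value of -0.58 in KMS11 that did not pass the test.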

How the results depend on the processing

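Over the members in 5 comparisons, 651 values were recomputed under alternatives, of which 573 kept direction and side of the threshold, 41 lost the call, 5 gained it and 32 changed sign, the last all for values that were not past the threshold. Across both lines the count of members called fell from 3 to 0 with an adjusted p under 0.01, without the cell line term and with the replicate block, and was 2 to 3 with 1 library left out. In H929 the count fell from 5 to 3 with an adjusted p under 0.01 and with limma on log2(TPM + 1), and was 3 to 5 with 1 library left out. In KMS11 it was 1 to 5 with 1 library left out, at 1 (ABCA1) without either ethanol library and at 5 without fluvastatin replicate 2, and for the difference it fell from 3 to 1 with limma and was 2 to 3 with 1 library left out. In ethanol it stayed at 5 with 1 library left out. These counts are given without the share of all tested genes called under the same setting, so they do not set the members apart from other genes. The cause of these changes was not tested. Leaving out a library changed both the values and the number of samples.

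Signs changed as follows. SMPDL3A across both lines (0.0067 as reported) was -0.0045 with DESeq2 size factors, -0.00038 without the filter, -0.00043 with DESeq2, -0.026 over all annotated genes, -0.077 with limma, -0.046 without the line term, -0.0011 with the replicate block and -0.15 to 0.23 with 1 library left out. LPCAT3 in KMS11 was 0.0038 with library size scaling, 0.064 with GC and length trends removed and -0.16 to 0.073 with 1 library left out. NR1H3 in KMS11 was -0.0011 with limma, -0.12 with trends removed and -0.30 to 0.42 with 1 library left out. NR1H2 in the difference was -0.19 with limma, -0.32 with trends removed and -0.33 to 0.60 with 1 library left out. With 1 library left out, NR1H3 was -0.017 to 0.25 across both lines, -0.034 to 0.43 in H929 and -0.45 to 0.29 in the difference, and NR1H2 in ethanol was -0.022 to 0.46.

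The replicate block left the counts of the other comparisons at 5, 3, 3 and 5. For the comparison in ethanol the block was a term for the replicate number. Deviations of same-numbered libraries correlated at 0.774 in H929 and -0.0782 in KMS11 over 5561 genes, and no source used here says that a number marks a shared culture or day. Removing trends or using limma moved the median of all genes in ethanol to -0.10 and 0.32. A library that is alone in its group was assumed to vary like the other groups. NR1H3 rests on 31 to 57 fragments per library.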

Other observations

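In ethanol, the other tested ABCA transporters stood in the opposite order between the lines to ABCA1 and ABCG1, while ABCG2 stood in the same order. Of the 8 tested, 7 were lower in KMS11 than in H929 in ethanol and 1 was higher (ABCG2, 0.64). The median log2 difference was -1.69 beside -0.02 over all tested genes, of which 36.4% were lower and 35.6% higher. Several of the 7 were low in KMS11 ethanol: ABCA2 had 12 to 24 fragments per library, ABCA6 9 to 13, ABCA9 6 to 11 and ABCA10 20 to 27. ABCA9 read at most 0.287 CPM in KMS11 ethanol and 0.183 CPM in KMS11 fluvastatin. It passed the filter on low counts through its H929 libraries alone, so the direction of its call was favoured in advance. The count of 7 and the median include it. ABCA7 read 10.7 ± 2.71 CPM in H929 ethanol and 1.18 ± 0.11 CPM in KMS11 ethanol (SD, n = 2), and ABCA3 read 30.7 ± 5.86 and 10.0 ± 0.54 CPM. These differences describe 1 line of each kind.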
